A study of Mus musculus with 12 samples.

Results

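Lung RNA of mice given simvastatin alone was compared with lung RNA of vehicle-treated controls. The arrays were chosen by their titles, 3 of simvastatin and 3 of control, which are 6 of the 12 arrays of the study. The other 6 arrays hold lungs irradiated with 25 Gy, 3 without and 3 with simvastatin, the latter called the combined group here. Levels were measured on whole-genome Affymetrix mouse arrays, and every level is the deposited log2 intensity, so a difference of 1 is a 2-fold change in signal. All animals are labelled wild type. The controls received vehicle and are labelled 8 to 10 weeks old. The simvastatin mice are labelled 8 to 12 weeks old and received 10 mg/kg into the peritoneum 3 times a week for up to 6 weeks. The text of that schedule refers to irradiation also for this group, whose labels list no radiation dose. In every value below, the labelled age cannot be told apart from the treatment. A single description calls all 12 arrays control tissue, so it was not used. Nothing in the labels says that arrays come from separate animals, and every p-value reflects only how these samples scatter, which may be technical.

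Statins lower the synthesis of mevalonate, the precursor of cholesterol and of the prenyl lipids that anchor small GTPases to membranes. When a cell runs short of sterols, the factor SREBP2 is released and switches on the genes of cholesterol synthesis and uptake. In endothelial cells, less prenylation of these GTPases is known to raise the factor KLF2 and, through it, endothelial nitric oxide synthase and thrombomodulin, which keep vessels open and free of clots.

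Several arrays stood apart before any comparison was made. Simvastatin 1 and simvastatin 3 differed by an SD of 0.118 log2 over 10342 bright probe sets. The array labelled combined 3 differed from them by only 0.111 and 0.114, while the next closest pair of arrays differed by 0.336. Simvastatin 1 and 3 were averaged and counted as 1 sample, so simvastatin has n = 2 and control n = 3, and combined 3 stayed in its labelled group. Cdkn1a (Entrez 12575), the p53 target that encodes the cell cycle inhibitor p21, went against 2 labels. It stood at 10.25, 10.69 and 13.01 on control 1 to 3 and at 11.09, 13.36 and 11.11 on simvastatin 1 to 3, against 13.12 to 13.42 on the 3 radiation arrays. Eda2r, another p53 target, showed the same 2 arrays high, at 7.49 on the array labelled control 3 and 8.28 on the array labelled simvastatin 2 against 3.54 to 4.75 on the other 4. Over the same bright probe sets, control 3 differed by an SD of 0.427, 0.458 and 0.596 from radiation 1 to 3. It differed by 0.974 and 0.720 from control 1 and 2, which differed by 0.814 from each other. Simvastatin 2 differed by 0.604, 0.708 and 0.379 from radiation 1 to 3, and by 0.441 from control 2. It differed by 0.539 and 0.554 from simvastatin 1 and 3. Both arrays enter the group differences below, and the cause was not tested. The main results are also given without control 3 and simvastatin 2. Wherever simvastatin 2 is left out, simvastatin has n = 1, so those values describe differences without a test. Xist, made from the inactive X of females, was at 2.45 on the array labelled control 3 and at 13.85 to 14.54 on the other 5.

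The labelled tissue was checked against markers of lung cells. Sftpc, the surfactant protein of alveolar type 2 cells, lay between 15.63 and 15.84 on all 6 arrays, and Scgb1a1, the secretory protein of club cells, between 15.92 and 16.20. Ager, a membrane receptor of alveolar type 1 cells, was at 14.42 on control 1 and at 15.03 to 15.37 on the other 5 arrays. The endothelial list averaged 11.25 on control 1 and 11.88 to 12.57 elsewhere. Control 1 was thus the lowest array for alveolar type 1, alveolar type 2 and endothelial markers. It was the highest for T and NK cell markers, at a mean of 10.45 against 5.80 to 6.88, and for cell cycle genes, at 11.29 against 7.21 to 8.13. In whole lung, fewer cells of a type and less RNA per cell cannot be told apart.

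**Figure D1:**
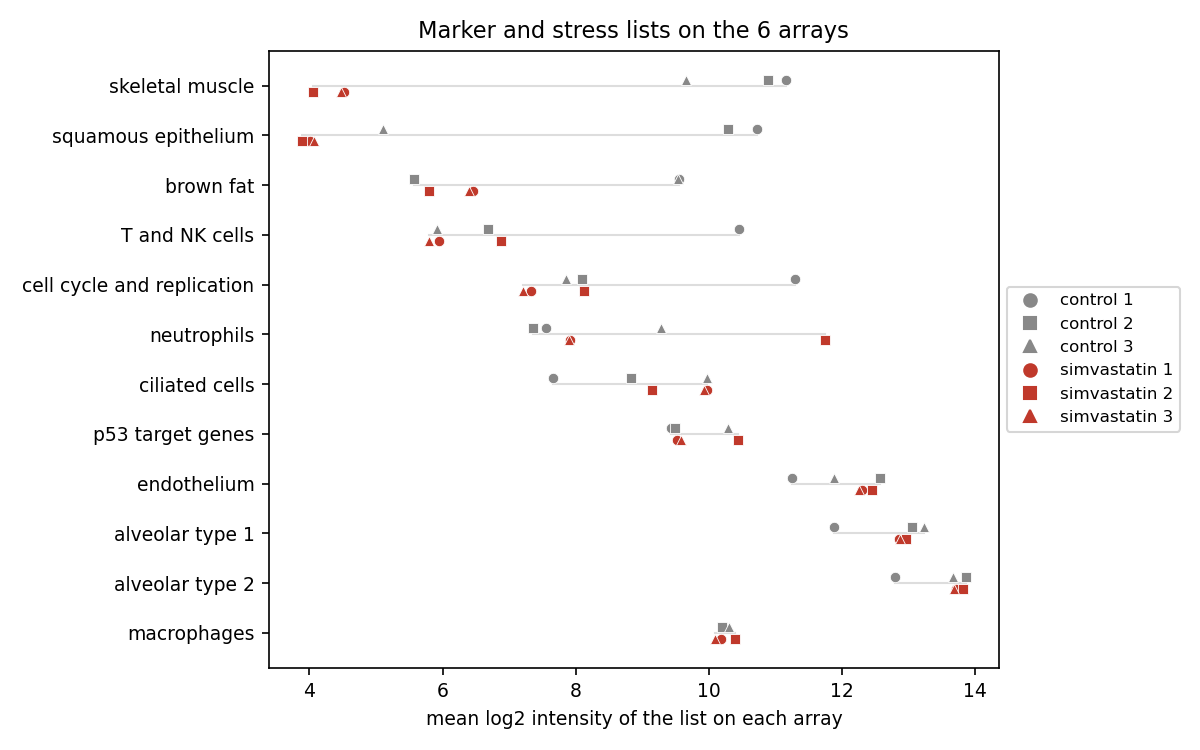
Mean log2 intensity (x axis) of 12 gene lists (y axis) on each of the 6 arrays, with controls in grey and simvastatin in red, and the marker shape giving the replicate number. Skeletal muscle markers lay at 9.66 to 11.16 on the controls and at 4.05 to 4.52 on simvastatin; neutrophil markers were highest on simvastatin 2 at 11.74, and T and NK cell markers on control 1 at 10.45.

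No gene passed the test of simvastatin minus control. The fit covered 11602 genes and all 4 groups, and 0.0% were called at a limma adjusted p under 0.05, with a lowest adjusted p of 0.990. At an unadjusted p under 0.05 there were 71 genes higher in simvastatin (0.612% of genes) and 143 lower (1.23%), together 214 where a uniform p would give 580.1. The 3 simvastatin arrays all lay above the 3 control arrays for 327 genes (2.82%) and all below for 740 genes (6.38%). The median difference over all genes was 0.00, with 5757 genes above 0 and 5845 below, and the median size of a difference was 0.22. Differences over 1 log2 numbered 253 higher and 420 lower. Every gene value below is therefore a description whose adjusted p in limma is 0.990 or higher. Without the array labelled control 3, genes at an unadjusted p under 0.05 numbered 654 higher and 352 lower, still with 0 called and a lowest adjusted p of 0.0695. Without both control 3 and simvastatin 2, simvastatin has n = 1, so no count or p-value is given for that setting. Fitted on the 2 groups alone, limma called 13 genes, all lower in simvastatin and all of striated muscle, which are described with the muscle markers.

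Most genes of the drug's target pathway had slightly lower values in simvastatin lungs, and the 95% interval of each but Dhcr7 included 0, with no adjustment for the number of genes. Of 26 cholesterol genes listed, 21 were measured, and the others were not analysed here. A negative difference was found for 18 of the 21, with a median of −0.16 against 0.00 over all genes. No member passed the test, and the arrays of 4 members did not overlap, each lower in simvastatin, a direction seen for 6.38% of all genes. The list median was −0.41 without control 1 and −0.11 without control 3 and simvastatin 2.

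Hmgcs1 (Entrez 208715) makes HMG-CoA at the head of the mevalonate pathway and is a standard SREBP2 target. Its promoter window holds a match to a sterol regulatory element. The stretch below comes from the RefSeq window of 250 bases before to 50 after the gene's start on GRCm38.p6, chr13:119690181-119690255, plus strand, and its capitals mark a match to the sterol regulatory element TCACNCCAC, which begins 137 bases before the start.
Hmgcs1: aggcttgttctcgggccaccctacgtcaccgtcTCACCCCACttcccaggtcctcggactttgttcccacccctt
The motif, searched on both strands, was present in 1.24% of 32851 promoter windows. The 17 measured pathway members with a window have 21 windows, and 1 member, Hmgcs1, held a match. A match is a description of these letters and not evidence of binding.

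Hmgcs1 stood at 12.91, 13.12 and 13.27 on control 1 to 3 and at 13.03, 12.80 and 13.14 on simvastatin 1 to 3. The groups overlapped, with a difference of −0.16 ± 0.16 (SE) and a 95% interval from −0.52 to 0.20, and an exact permutation test over the 5 samples gave a two-sided p of 0.4, where the smallest this design allows is 0.1. Without control 3 and simvastatin 2 the difference was 0.07. Its 5 probe sets gave differences between −0.52 and −0.12. An increase of Hmgcs1 above 0.20 log2 thus lies outside the interval.

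The early enzymes from mevalonate to farnesyl pyrophosphate were spread around small values. Mvk, which phosphorylates mevalonate, differed by −0.03 ± 0.27. Idi1, which isomerises isopentenyl pyrophosphate, differed by −0.38 ± 0.29, and by 0.092 without control 3 and simvastatin 2. Fdps, which builds farnesyl pyrophosphate, differed by −0.71 ± 0.67, with simvastatin 1 and 3 at 8.73 and 8.49, simvastatin 2 at 10.28 and the controls at 9.40 to 10.77. Pmvk, the phosphomevalonate kinase, had the largest positive value of the pathway at 0.53 ± 0.46.

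The steps committed to sterols had mostly negative values, some of which turned with the arrays. Fdft1, squalene synthase, stood at 10.73, 10.84 and 11.22 on the controls and at 10.69, 10.12 and 10.59 on simvastatin 1 to 3. Its groups did not overlap, although control 1 and simvastatin 1 were only just apart, and the difference was −0.55 ± 0.28. Sqle, the epoxidase that follows, differed by −0.24 ± 0.30 with overlapping arrays, and Cyp51, the lanosterol demethylase, by −0.33 ± 0.33. Without control 3 and simvastatin 2, Sqle differed by 0.067 and Cyp51 by 0.12. Dhcr7, the reductase that makes cholesterol from its last precursor, was the pathway member of lowest p. It stood at 8.11, 7.10 and 7.89 on control 1 to 3 and at 6.61, 6.11 and 6.86 on simvastatin 1 to 3, with no overlap and a difference of −1.28 ± 0.39. The difference was −0.87 without control 3 and simvastatin 2 and −0.78 with arrays weighted by their fit. The sterol desaturase Sc5d differed by −0.34 ± 0.24 and did not overlap either.

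Among the regulators of the pathway, Insig1 separated, and Srebf2 and Scap overlapped. Insig1, which holds SREBP in the endoplasmic reticulum when sterols are plentiful and is itself an SREBP target, stood at 9.73, 10.08 and 9.88 on the controls and at 9.65, 9.48 and 9.70 on simvastatin. Its groups did not overlap and differed by −0.32 ± 0.26. Srebf2, which encodes SREBP2, lay at 9.01 to 9.29 on the controls and at 9.11 to 9.27 on simvastatin. Scap, its escort protein, differed by −0.14 ± 0.16.

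**Figure D2:**
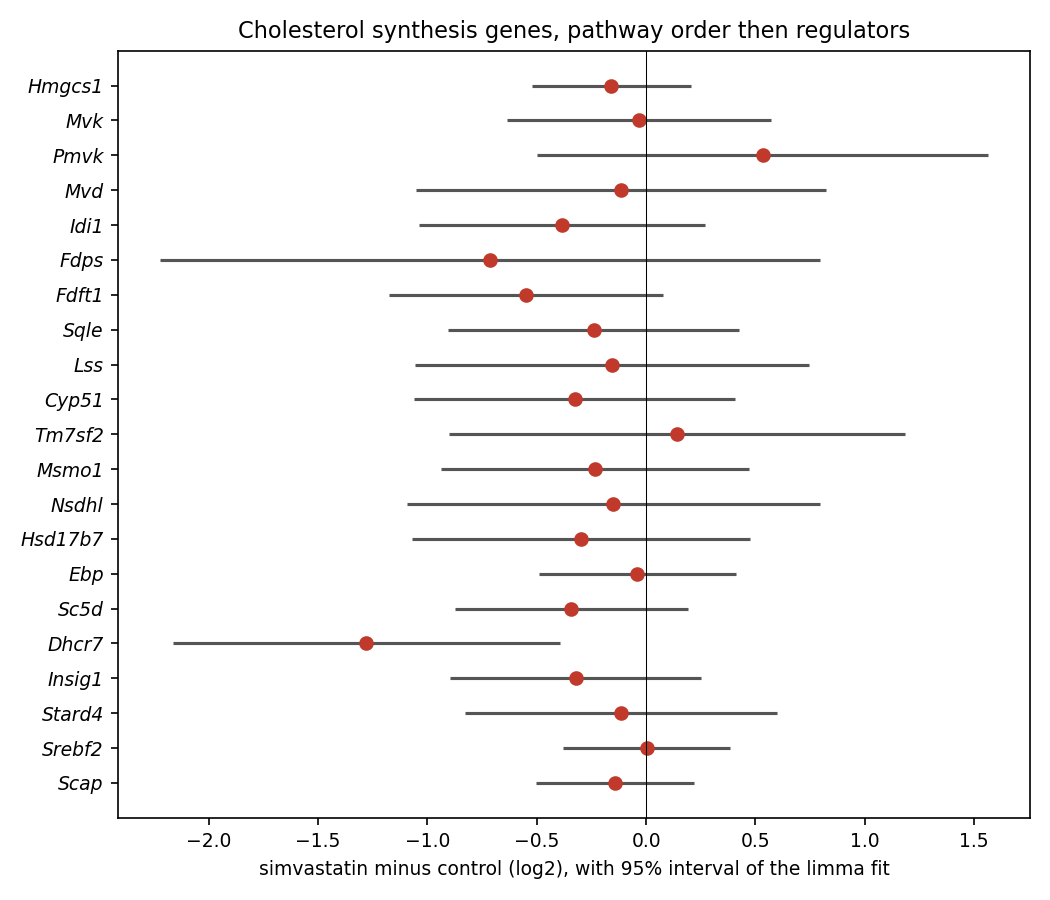
Difference of simvastatin minus control in log2 (x axis) for the 21 measured genes of cholesterol synthesis (y axis, in pathway order with regulators last); points are limma estimates and lines their 95% intervals, not adjusted for the number of genes. Of the 21 intervals, the one for Dhcr7 lies wholly below 0, at −2.16 to −0.40, and 18 estimates are negative.

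Fatty acid synthesis and LXR targets, which respond to the sister factor SREBP1 and to oxysterols, showed no separation. Of 19 measured members 12 were below 0 and the median was −0.10, with no gene whose arrays did not overlap. The median was 0.05 without control 3 and 0.19 with the near-identical arrays, combined 3 among them, as a random block. Abcg1, a cholesterol exporter, differed by −0.25 ± 0.23, and Pltp, a phospholipid transfer protein, by 0.27 ± 0.23.

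Prenylation enzymes and the small GTPases they modify had a median difference of 0.07 over 20 measured members, 13 of them above 0. Rhob (Entrez 11852), a small GTPase whose RNA is known to rise in cells treated with statins, was the member of lowest p. It stood at 12.02, 12.86 and 12.79 on control 1 to 3 and at 13.18, 13.58 and 13.22 on simvastatin 1 to 3. All simvastatin arrays were above all controls, and the difference was 0.83 ± 0.26. Without control 1, the lowest array, it was 0.57, and without control 3 and simvastatin 2 it was 0.76. The arrays of the other members overlapped. Rhoa, which drives actin stress fibres, was at 12.44 to 12.96 on the controls and at 12.24 to 13.09 on simvastatin, and Cdc42, which shapes the cytoskeleton, at 13.96 to 14.28 and 14.18 to 14.20.

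Endothelial genes known to respond to statins were mostly higher in simvastatin. The list mixes genes that statins are known to raise, such as Klf2, with genes they are known to lower, such as Ccn2. A count above 0 therefore does not measure a statin response. Of 18 measured members 14 were above 0, with a median of 0.47 against 0.00 over all genes. The arrays of 6 members lay wholly above the controls, against 2.82% of all genes, and those of 1, Vcam1, wholly below, against 6.38%. No member passed the test. The median without control 1 was 0.27, and endothelial markers, of which 18 of 18 were above 0 with a median of 0.47, were also lowest on control 1. Their median was 0.12 without control 1, 0.82 without control 2 and −0.07 when arrays were weighted by their fit, and the part of these markers in the result was not tested.

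Klf2 (Entrez 16598), the flow-responsive factor named above, stood at 11.32, 13.07 and 11.92 on control 1 to 3 and at 13.59, 13.18 and 13.47 on simvastatin 1 to 3. Control 2 came close to simvastatin 2, while the other controls were far lower. The difference was 1.25 ± 0.50, and 0.86 without control 1. Klf4, a related factor that acts beside KLF2 in endothelium, stood at 11.98, 13.53 and 12.76 on the controls and at 14.11, 13.76 and 14.13 on simvastatin, a difference of 1.18 ± 0.40. For both factors control 2 was the highest control and simvastatin 2 the lowest simvastatin array. With arrays weighted by their fit, Klf2 differed by 0.44 and Klf4 by 0.53.

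The downstream genes of KLF2 differed less. Nos3, endothelial nitric oxide synthase, stood at 7.15, 8.09 and 8.42 on the controls and at 9.02, 8.16 and 8.87 on simvastatin. Simvastatin 2 fell within the controls, and the difference of 0.67 ± 0.45 had an interval from −0.33 to 1.67. Thbd, thrombomodulin, differed by 0.47 ± 0.22 with overlapping arrays. Edn1, the vasoconstrictor endothelin that KLF2 is known to repress, was at 8.72 to 9.27 on the controls and at 9.50 to 9.52 on simvastatin, higher by 0.48 ± 0.25.

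Genes of clotting and clot removal made in vessel walls also lay higher. Vwf (Entrez 22371), von Willebrand factor, stood at 12.31, 13.49 and 12.71 on control 1 to 3 and at 13.91, 13.90 and 13.88 on simvastatin 1 to 3, a difference of 1.06 ± 0.32. The simvastatin arrays were nearly equal and the spread lay among the controls. With weighted arrays Vwf differed by 0.51 and Plat by 0.49. Plat, tissue plasminogen activator, stood at 9.87, 11.08 and 10.45 against 11.09, 11.84 and 11.12, a difference of 1.01 ± 0.36, with control 2 almost level with simvastatin 1. Fgl2, a membrane prothrombinase, differed by 0.50 ± 0.19 with no overlap. Of 16 measured coagulation genes 13 were above 0, with a median of 0.45 that was 0.16 without control 1 and 0.08 without simvastatin 2. Ccn2, a matrix protein gene driven by YAP signalling that statins are known to lower in culture, was higher by 0.84 ± 0.33, and by 0.48 without control 1. The related Ccn1, listed with Ccn2 among the endothelial statin genes, went the other way, at −1.88 to −0.29 over its 4 probe sets.

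Glucocorticoid and fasting genes were mostly higher in simvastatin, also without control 1. Of 20 measured members 16 were above 0 with a median of 0.49 against 0.00 over all genes. The median was 0.48 without control 1, 0.36 without simvastatin 2 and 0.42 without both control 3 and simvastatin 2. The arrays of 6 members lay wholly above the controls, against 2.82% of all genes, and none passed the test. Tsc22d3 (Entrez 14605), the glucocorticoid-induced leucine zipper, stood at 10.29, 11.45 and 10.93 on control 1 to 3 and at 11.69, 12.65 and 11.72 on simvastatin 1 to 3. Its difference was 1.29 ± 0.39, with simvastatin 2 highest, and 0.82 without that array.

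Sgk1, a kinase that glucocorticoids induce, stood at 12.97, 13.48 and 13.26 against 13.63, 14.10 and 13.69, a difference of 0.64 ± 0.20. Cebpd, a transcription factor of the acute phase, stood at 10.03, 11.89 and 11.87 against 12.82, 12.96 and 12.73. Its difference of 1.60 ± 0.51 was 0.99 without control 1. Errfi1, a feedback inhibitor of the EGF receptor, stood at 11.43, 12.76 and 11.68 against 13.19, 13.67 and 13.09, a difference of 1.45 ± 0.35, and had the second lowest p of all genes. Fkbp5, a classical glucocorticoid target, stood at 11.77, 7.81 and 9.83 against 8.16, 9.35 and 8.12. Its difference of −1.06 ± 1.26 was −0.08 without control 1, 0.62 with weighted arrays and 0.12 with the near-identical arrays as a random block. A second Fkbp5 probe set gave −2.44, at 8.87, 4.44 and 5.19 against 3.19, 4.68 and 2.34. The other members below 0 were Zbtb16, at −0.96 to −0.41 over 3 probe sets, Mt2 at −0.18 and Pdk4 at −0.13.

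**Figure D3:**
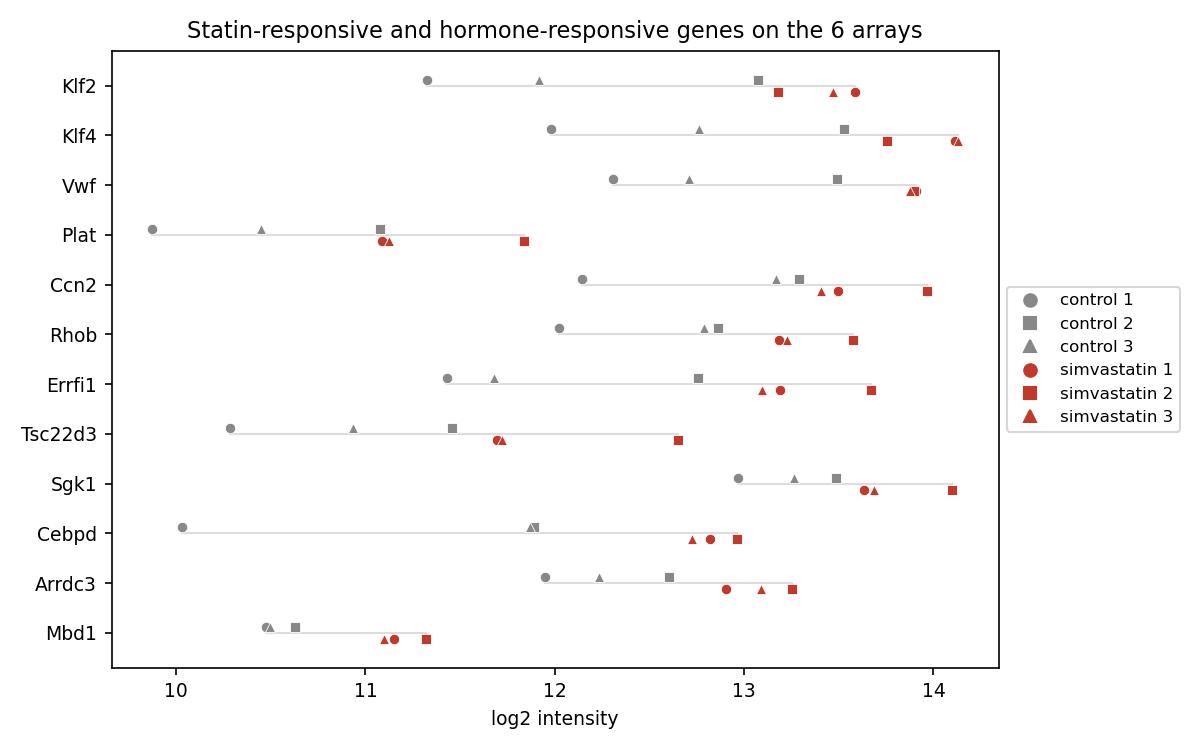
Log2 intensity (x axis) of 12 genes (y axis) on the 3 control arrays (grey) and 3 simvastatin arrays (red), with the marker shape giving the replicate number. The genes shown are ones whose arrays did not overlap, so all red points lie right of all grey points by selection. Overlapping members of the same lists, such as Nos3, Thbd and Fkbp5, are not shown. For Klf2 control 2 at 13.07 comes close to simvastatin 2 at 13.18, and control 1 is the lowest array throughout.

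Clock genes differed in both directions, with a median of 0.08 over 18 measured members and 11 above 0. The median was 0.02 without control 1 and 0.28 without control 2. The molecular clock runs on BMAL1 and CLOCK, which bind E-boxes and drive the Per and Cry genes, whose proteins shut them off, and the hour of death sets the level of each gene. No label gives that hour. The 4 members whose arrays did not overlap are Per1, Nfil3 and Ciart, higher in simvastatin, and Dbp, lower, where 2.82% and 6.38% of all genes separated in these directions. The E-box CACGTG, searched on both strands, was present in 7.15% of all promoter windows. The 16 measured clock genes with a window have 24 windows, so a count by gene is not in the same unit as that share. Per1 and Tef have 2 windows each. By gene, a match was found in 4 of the 16, which were Ciart, Cry1, Per1 and Tef. The 2 stretches below, from the same RefSeq windows on GRCm38.p6, show the E-boxes in capitals for the 2 of these that separated. They are Per1 at chr11:69098749-69098823, plus strand, with the E-box 166 bases before the start, and Ciart at chr3:95882259-95882358, minus strand, with 3 E-boxes, 116, 58 and 44 bases before.
Per1: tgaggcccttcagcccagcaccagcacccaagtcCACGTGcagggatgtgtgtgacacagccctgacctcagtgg
Ciart: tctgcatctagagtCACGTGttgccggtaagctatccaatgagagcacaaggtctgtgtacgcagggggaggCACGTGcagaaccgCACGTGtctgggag

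Per1, a clock repressor that glucocorticoids also induce, stood at 7.05, 9.53 and 7.83 on control 1 to 3 and at 10.16, 9.76 and 10.18 on simvastatin 1 to 3. The difference was 1.82 ± 0.65, and 0.66 with weighted arrays, with control 2 close to simvastatin 2. Ciart, a repressor of BMAL1 and CLOCK, stood at 4.56, 6.06 and 4.67 against 6.23, 6.32 and 6.07, so that control 2 lay level with simvastatin 3, and differed by 1.14 ± 0.73. Per2 differed by 1.10 ± 0.82, and control 2 was its highest array at 9.06. For the 3 genes controls 1 and 3 were low and control 2 was near the simvastatin arrays.

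Nfil3, a repressor in the output arm of the clock, stood at 5.14, 6.10 and 6.49 against 7.34, 7.93 and 7.23, a difference of 1.70 ± 0.78. Dbp, an activator that competes with NFIL3 for the same sites, stood at 10.37, 11.43 and 9.91 against 8.95, 8.52 and 8.90, a difference of −1.84 ± 0.90. Nr1d1, the repressor REV-ERBα, was at 6.55, 8.19 and 8.77 on the controls and at 6.84, 5.28 and 6.86 on simvastatin. Its difference was −1.78 ± 0.68, with control 1 below simvastatin 1 and 3, and it shrank to −0.52 without control 3 and simvastatin 2. Arntl, which encodes BMAL1, lay at 8.29 to 9.87 on the controls and at 8.76 to 8.92 on simvastatin.

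**Figure D4:**
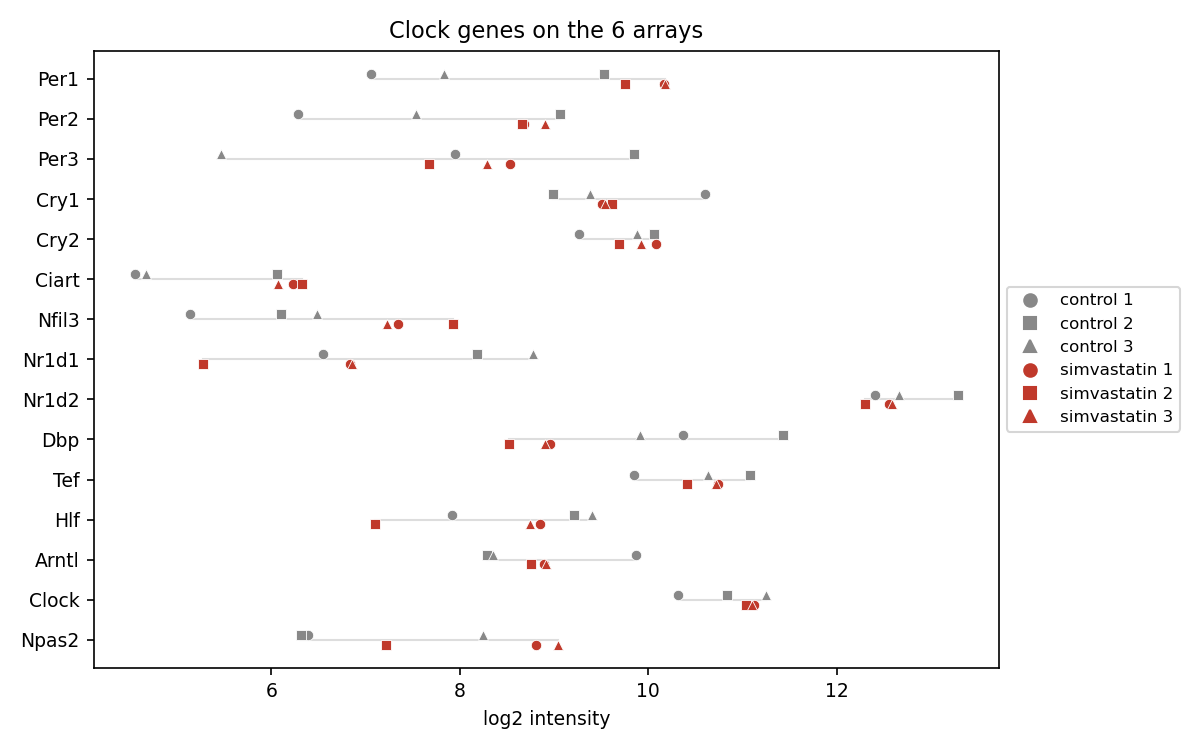
Log2 intensity (x axis) of 15 clock genes (y axis) on the 3 control arrays (grey) and 3 simvastatin arrays (red), with the marker shape giving the replicate number. Per1, Ciart and Nfil3 lie higher and Dbp lower on every simvastatin array, and the controls spread more widely than the simvastatin arrays for Per1, at 7.05 to 9.53 against 9.76 to 10.18.

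The 10 genes of lowest p were not from a single list. Ints1, a subunit of the Integrator complex that processes small nuclear RNA, was first. It stood at 7.40, 7.14 and 6.91 on control 1 to 3 and at 6.09, 6.22 and 5.45 on simvastatin 1 to 3, a difference of −1.15 ± 0.26, and its other kept probe set gave −0.49. Rnf227, a RING finger gene, stood at 6.29, 6.58 and 6.21 against 4.78, 4.35 and 4.57, a difference of −1.85 ± 0.45. Arrdc3, an arrestin-domain protein that steers receptors to degradation, stood at 11.95, 12.60 and 12.23 against 12.91, 13.25 and 13.09, a difference of 0.86 ± 0.21. The groups of all 3 were clearly apart.

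Mbd1, which binds methylated DNA, stood at 10.47, 10.63 and 10.50 against 11.15, 11.32 and 11.10, and its controls had the narrowest range of the 10 genes. Its difference was 0.69 ± 0.18, and its 4 probe sets gave 0.53 to 1.64. Ppp1r13l, which encodes the p53 inhibitor iASPP, differed by −0.81 ± 0.23, Acad9, a mitochondrial complex I assembly factor, by −0.57 ± 0.17, and Ston1, an endocytosis adaptor, by 1.30 ± 0.39. Errfi1, Tsc22d3 and Vwf complete the 10.

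Some of these genes also set the controls apart from the irradiated arrays. Mbd1 was at 11.09 to 11.69 on the 6 arrays of the radiation and combined groups, above all 3 controls. Tsc22d3 was at 11.50 to 12.77 there, also above all 3 controls, and Rnf227 at 4.54 to 6.10. Arrdc3, at 12.33 to 13.07, overlapped control 2. The Mbd1 controls, at most 10.63, thus lay below all 9 other arrays, and the Rnf227 controls, at least 6.21, above all 9. Both genes were named for a low p of simvastatin minus control, so their separation from the simvastatin arrays is by selection. The same 3 controls are set against the irradiated arrays, so that separation is not independent of the selection. The array labelled combined 3, among the 9, was also near-identical to arrays of simvastatin. How many of all genes separate in this way was not counted.

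Among genes whose arrays did not overlap, each read by its brightest probe set, the largest positive differences were the following. Ighm, a B and plasma cell marker, is not among them, because its brightest probe set differed by −0.08. Its 7 kept probe sets gave −0.08 to 5.80. The largest was at 3.19, 2.95 and 3.09 on control 1 to 3 and at 11.75, 5.97 and 11.84 on simvastatin 1 to 3. E230029C05Rik, an unnamed transcript, differed by 2.24 ± 1.10. Slc6a20a, a proline transporter, stood at 3.63, 4.82 and 6.07 on control 1 to 3 and at 6.95, 6.77 and 6.82 on simvastatin, a difference of 1.99 ± 0.65. A330023F24Rik differed by 1.91 ± 0.92, Cfap65, a protein of cilia and sperm tails, by 1.86 ± 0.84, Per1 by the value above and A530020G20Rik by 1.71 ± 0.77. Ciliated cell markers were above 0 for 15 of 15 members, with a median of 0.77, but their list mean was 7.65 on control 1 and 8.84 to 9.98 on the other 5 arrays, and the median was 0.10 without control 1. It was 1.37 without control 3 and 1.80 without both control 3 and simvastatin 2. Ccdc39, a ruler protein of the ciliary axoneme, was at 8.70 to 9.81 on the controls and at 9.78 to 10.77 on simvastatin.

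Genes of skeletal muscle stood apart. All 14 measured muscle markers were lower on every simvastatin array than on any control array, where 6.38% of all genes were. Their fitted median was −6.41, and −2.57 with the near-identical arrays, combined 3 among them, as a random block. The list averaged 11.16, 10.90 and 9.66 on control 1 to 3 and 4.52, 4.05 and 4.47 on simvastatin 1 to 3. Tnnc2 (Entrez 21925), fast troponin C, stood at 13.84, 13.40 and 12.01 against 2.15, 2.16 and 2.16. The simvastatin values lie near 2.04, the 10th percentile of all values. Signals this low have no exact size, so no difference is given for such genes, and medians of lists that hold them are not exact either. Myh1, a fast myosin, was at 12.04 to 13.31 on the controls and at 2.41 to 2.48 on simvastatin, and Myh8, a perinatal myosin, at 11.46 to 13.25 and 2.49 to 2.80. Acta1, skeletal actin, was at 13.06 to 14.35 and 3.81 to 6.03. In the fit of the 2 groups alone, the 13 genes called were Myh1, Tnnc2, Myh8, Acta1, Myot, Mybpc2, Atp2a1, Tnni2, Myl1, Neb, Tnnt3, Myoz1 and Mylpf, with limma adjusted p from 0.0102 to 0.0409.

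Muscle signal also varied within other groups. Tnnc2 was at 13.31, 12.21 and 2.17 on radiation 1 to 3 and at 14.19, 13.98 and 2.24 on combined 1 to 3. The array labelled combined 3, near-identical to simvastatin 1 and 3, was thus as low as they were.

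Squamous epithelium, which lines the mouth and esophagus and not the healthy alveolus, showed a similar but less even pattern. All 15 measured markers were below 0 with a fitted median of −3.97, and −1.19 with the near-identical arrays as a random block. The arrays of 9 lay wholly below the controls, against 6.38% of all genes. Krt4, a keratin of the esophagus, stood at 15.19, 15.18 and 8.17 on control 1 to 3 and at 2.80, 2.70 and 2.83 on simvastatin 1 to 3. Krt13, its partner keratin, stood at 14.76, 14.91 and 6.57 against 3.05, 2.39 and 3.07. Controls 1 and 2 carried most of this signal. Brown fat markers were high on controls 1 and 3 and not on control 2, with Ucp1, the heat-making uncoupler, at 12.89, 2.20 and 12.28 against 2.22 to 2.32 on simvastatin.

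**Figure D5:**
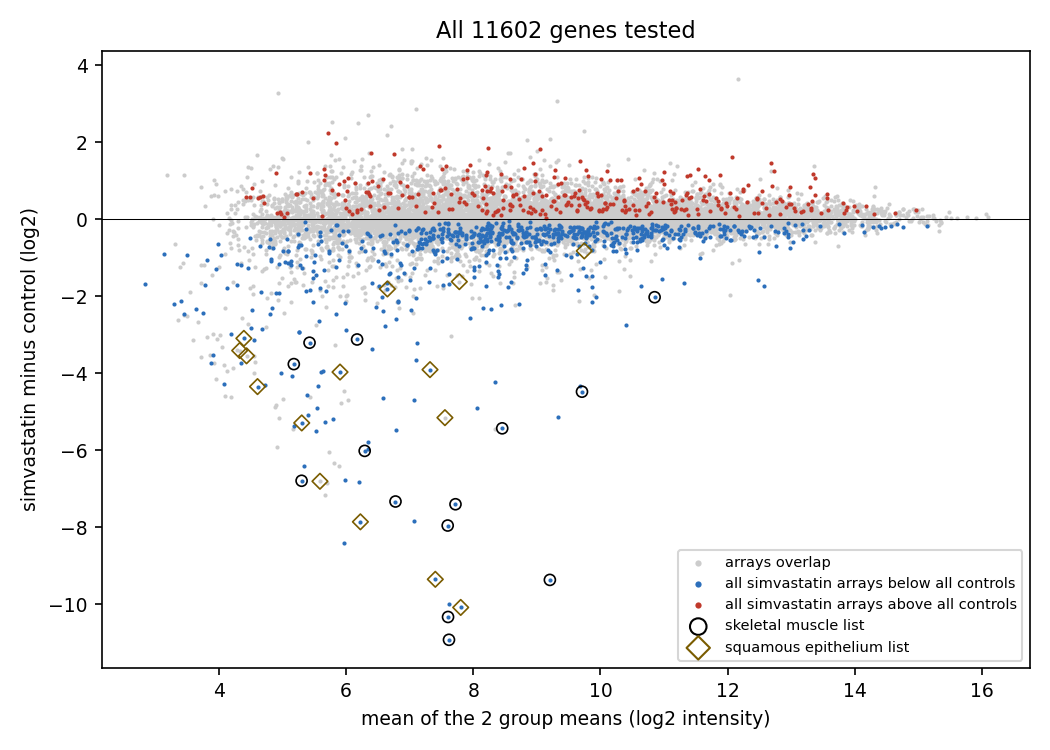
Difference of simvastatin minus control in log2 (y axis) against the mean of both group means in log2 intensity (x axis) for the 11602 genes tested; red and blue points are genes whose 3 simvastatin arrays lie wholly above (327) or below (740) the 3 control arrays, grey points overlap, circles are the 14 skeletal muscle markers and diamonds the 15 squamous markers. Both marker lists lie wholly below 0; for the lowest points the simvastatin signal is near the lowest values of the arrays, so their depth on the y axis is not exact.

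DNA damage and injury lists depended on the arrays that went against their labels. Of 21 measured p53 targets 16 were above 0 with a median of 0.37. It was −0.21 without simvastatin 2, 0.52 without control 3 and 0.27 without both. Cdkn1a differed by 0.92 ± 0.92, with an exact permutation p of 0.5 over the 5 samples, by −0.21 without simvastatin 2 and by 0.64 without both control 3 and simvastatin 2. Perp, a p53 target that is also a desmosome protein of stratified epithelium, was the member of lowest p and was lower by −1.73 ± 0.76. It stood at 12.10, 12.13 and 10.30 on control 1 to 3 and at 10.19, 9.38 and 10.17 on simvastatin 1 to 3, so that control 3 was the lowest control, as for the squamous markers. Neutrophil markers were above 0 for 10 of 10 members with a median of 1.38, and the median was −0.13 without simvastatin 2, 2.24 without control 3 and 0.36 without both. Camp, a peptide of neutrophil granules, was at 9.91 on simvastatin 2 and at 3.21 to 3.48 on the other 5 arrays.

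Inflammatory and interferon genes were not separated. Of 20 measured inflammatory mediators 14 were above 0, with a median of 0.30 that was 0.05 without control 1, and no gene's arrays were free of overlap. Cd14, a receptor for endotoxin, differed by 0.83 ± 0.36, and Nfkbia, the inhibitor of NF-κB, by 0.35 ± 0.15. Of 23 interferon-stimulated genes 19 were below 0 with a median of −0.17, and none was free of overlap. Their median without control 3 and simvastatin 2 was −0.55. Ifit2, an antiviral protein, stood at 10.43, 10.52 and 10.75 on the controls and at 9.87, 10.44 and 9.99 on simvastatin, a difference of −0.38 ± 0.25.

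Sphingolipid enzymes and S1P receptors, which control the endothelial barrier, had a median of 0.07 over 24 members, 18 above 0. Without control 1 the median was −0.06, with 8 above 0. Sgms2, a sphingomyelin synthase, was the member whose arrays did not overlap, at 7.18, 8.09 and 8.90 against 8.95, 9.22 and 8.98. Its difference was 1.04 ± 0.40, 0.60 without control 1, and control 3 was almost level with simvastatin 1. S1pr1, the main S1P receptor of endothelium, was listed with the endothelial statin genes and not among the 24 members. It differed by 1.03 ± 0.72, with simvastatin 2 at 12.48 and the other 5 arrays at 9.56 to 11.43. Without simvastatin 2 it differed by −0.11.

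Detoxification lists had small medians, while single members lay further from 0. Xenobiotic genes, with 15 of 22 above 0, had a median of 0.28 that was 0.01 without control 1. Their values ran from −1.88 to 0.78. Aldh3a1, the member of lowest p, had the lowest value. It stood at 11.93, 11.84 and 9.93 on control 1 to 3 and at 10.15, 8.59 and 10.09 on simvastatin 1 to 3, with overlap. Ces1d, a carboxylesterase, differed by 0.33 ± 0.18 without overlap. Nrf2 targets, with values from −1.05 to 1.30 and 8 of 19 above 0, had a median of −0.01. It was −0.15 with 5 above 0 without control 1, and 0.22 with 13 above 0 without control 3 and simvastatin 2. Nqo1, a quinone reductase, stood at 6.81, 5.72 and 6.71 against 5.26, 5.50 and 5.19, a difference of −1.05 ± 0.58. Gpx2, a glutathione peroxidase of epithelia, differed by −0.71 ± 0.33, and Cat, catalase, by 0.24 ± 0.15, each without overlap.

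Immediate early genes, which also respond to handling of tissue, had a median of 0.12 over 23 members, which was 0.05 without control 1 and 0.23 without control 2. Fosl2, an AP-1 subunit, stood at 9.71, 11.35 and 11.34 against 12.03, 11.85 and 11.93, a difference of 1.12 ± 0.49 that was 0.58 without control 1. Egr1 lay the other way at −1.15 ± 0.51 with overlapping arrays.

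Matrix genes had a median of 0.04, with 19 of 31 above 0. Without control 1 the median was −0.16 with 8 above 0, and without control 3 and simvastatin 2 it was −0.05 with 13 above 0. Eln, elastin, stood at 10.16, 10.44 and 11.03 against 11.66, 11.25 and 11.63, a difference of 0.91 ± 0.47, and a second probe set gave 1.18. Lum, the collagen-binding proteoglycan lumican, stood at 10.53, 9.44 and 8.67 against 7.50, 7.13 and 7.54, a difference of −2.22 ± 0.88. Control 1 was the highest and control 3 the lowest control, as for the muscle and squamous list means, and the part of those tissues in its level was not tested.

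Cell cycle genes were below 0 for 22 of 23 members, with a median of −1.44 that was −0.26 without control 1 and −2.59 without control 3 and simvastatin 2. Mcm2, a subunit of the replicative helicase, stood at 10.77, 8.18 and 8.25 against 6.94, 7.77 and 6.83, a difference of −1.74 ± 0.82 and −0.89 without control 1. Mki67, the proliferation antigen, differed by −1.38 ± 1.36 and by 0.08 without control 1. Cd8b1, a subunit of the T cell coreceptor CD8, was at 12.74 on control 1 and at 3.02 to 5.18 on the other 5 arrays.

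The effect of simvastatin without radiation was set beside its effect with radiation, which uses the combined and radiation arrays and so no array of the first comparison. The array labelled combined 3 was, however, near-identical to simvastatin 1 and 3. The test of the difference between both effects called 0.0% of genes, with a lowest limma adjusted p of 0.882 and 377 genes at an unadjusted p under 0.05. Arrdc3 differed by 0.86 ± 0.21 without radiation and by −0.37 ± 0.19 with it, Tsc22d3 by 1.29 ± 0.39 and −0.65 ± 0.34, and Sgk1 by 0.64 ± 0.20 and −0.30 ± 0.18. Klf2 differed by 1.25 ± 0.50 and 0.65 ± 0.45, and Klf4 by 1.18 ± 0.40 and 0.50 ± 0.36. Hmgcs1 differed by −0.16 ± 0.16 and 0.09 ± 0.14, and Dhcr7 by −1.28 ± 0.39 and 0.26 ± 0.35. The differences between both effects did not pass the test for any of these genes. Arrdc3, Tsc22d3, Sgk1, Klf4 and Dhcr7 were named for a low p in the comparison without radiation. Their values there are therefore large by selection, and those with radiation were not selected in this way.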

How the data were processed

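The deposited table holds 45101 probe sets on 12 arrays of lung RNA. Its values are log2 intensities made by the authors, and the submitters' processing notes name MAS5 and GCRMA without versions. Array medians ranged from 4.42 to 5.12 and were left as deposited. Affymetrix's own 64 control probe sets were dropped. The platform annotation names 1 gene for 34945 probe sets, several for 932 and none for 9160, and 34741 of the first kind matched RefSeq by Entrez identifier. A probe set entered when its value exceeded log2 4.85, the overall median, on 3 or more arrays, and the brightest by mean represented its gene. The number of arrays limits the precision.

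Group means of 4 groups and 11 samples, simvastatin 1 and 3 being averaged, were fitted with limma 3.58.1 under R 4.3.3 (lmFit, then eBayes with trend), which left 7 residual degrees of freedom. Errors are standard errors of that fit, and p-values were adjusted by Benjamini-Hochberg over 11602 genes. The fit was also run on simulated data, with no outcome reported here. Of 3384 unnamed probe sets fitted separately, 0 passed in limma and 42 had an unadjusted p under 0.05. Alternatives covered scaling, filters, probe set choice, weights, blocks and leaving out arrays.

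The comparison, gene lists and alternatives were chosen with earlier results of these data known. Named genes are the 10 of lowest p, the 6 largest differences each way without overlap, up to 3 members of lowest p per list, the brightest marker of each marker list, and check genes of statins and p53. A few other list members were chosen after their values were seen. Promoter stretches come from the RefSeq tables.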

Additional observations from a re-analysis of the deposited data

How the results depend on the processing

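The limma fit of 12 arrays was also run with the replicate number as a block (replicate block). It gave 321 genes higher and 541 lower at an unadjusted p under 0.05, against 230 and 380 without the block, and called 0. Deviations of same-numbered control and simvastatin arrays correlated at −0.077, 0.089 and 0.124. Those of control and combined arrays correlated at 0.318, 0.287 and 0.408, and the other pairs of groups at −0.259 to 0.393. With 3 arrays a group, some near-identical, these values cannot decide whether the numbers pair the arrays. Array weights gave 316 higher and 316 lower, median centring 38 higher, the near-identical arrays as a random block 159 higher, and the 2 groups alone 27 higher, with 13 genes called. Leaving out control 3 and simvastatin 2 gave 729 higher and 272 lower, and 3970 and 2585 genes without overlap, partly because 2 arrays a group overlap less often; median centring gave 198 higher without overlap. Over single arrays left out, genes at an unadjusted p under 0.05 numbered 43 to 654 higher and 86 to 528 lower, genes without overlap 372 to 1824 higher and 874 to 1942 lower, and genes called 0; the lowest limma adjusted p was 0.0695, without control 3. The test between both effects called 0 to 1 genes, the 1, Aoc1, without control 3 (limma adjusted p = 0.0468). Other settings in which simvastatin kept n = 2 or more left these counts within 1.5 times.

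Of 75 named genes compared, 11 changed sign in some setting. Without control 3 and simvastatin 2, Hmgcs1 was 0.072, Sqle 0.067, Idi1 0.092, Cyp51 0.12 and S1pr1 −0.49. With array weights Fkbp5 was 0.62, Per2 −0.11 and Pltp −0.048, and with the random block Fkbp5 was 0.12. Over single arrays left out, Cdkn1a ranged from −0.21 to 1.76, S1pr1 from −0.11 to 1.60, Cyp51 from −0.63 to 0.0052, Mki67 from −2.24 to 0.082 and Mvk from −0.12 to 0.046. The random block moved the skeletal muscle median to −2.57 and the squamous median to −1.19. That block joins simvastatin 1 and 3 with combined 3 of another group, at a fitted correlation of 0.965. Its estimates of simvastatin minus control therefore also draw on the combined arrays. The cause of these shifts was not tested.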
